A study of Rattus norvegicus with 22 samples.

Results

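BIRB796 was compared between stretched engineered cardiac tissues that received it and stretched tissues that did not, and the members were chosen by their titles alone: 4 arrays labelled stretch with BIRB796 and 7 labelled stretch, 11 of the 22 arrays in the series. Engineered cardiac tissue is heart muscle rebuilt in culture from dissociated cells, here from the ventricles of Sprague Dawley rat embryos at gestational day 14.5 and kept for 7 days. Both groups were stretched cyclically from culture day 5, for 48 h at 0.5 Hz and 5% elongation. The stretch with BIRB796 group also received 10 µM of BIRB796 for the same 48 h. The other 2 groups of the series entered the fit, 7 control arrays that were neither stretched nor treated and 4 arrays of unstretched tissue with BIRB796. The labels tie no array to a litter or culture, so each p-value reflects variation among the samples at hand, part of which may be technical. The tissue holds several cell types, and fewer cells of a type cannot be told apart here from less RNA per cell.

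BIRB796 (doramapimod) blocks p38, a family of mitogen-activated protein kinases (MAPK) that are switched on by mechanical, osmotic and inflammatory stress. Active p38 phosphorylates the kinase MAPKAPK2 and several transcription factors. Through them it acts on the transcription and the stability of short-lived RNAs, among them those of cytokines, the prostaglandin synthase Ptgs2 and AP-1 proteins, dimers of the Fos and Jun families that bind DNA. In heart muscle p38 is known from studies of pressure load, hypertrophy and fibrosis.

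The scan sessions bear on every value that follows. Stretch replicates 1 to 3 were scanned in session 1 beside control replicates 1 to 3. Stretch replicates 4 to 7 filled session 2, with no other group. The 4 stretch with BIRB796 arrays were scanned in session 3, with the 4 BIRB796 arrays and control replicates 4 to 7. No session held both compared groups, so the inhibitor and the scan session cannot be told apart without the controls. Stretch replicates 4 and 5 differed by less than the noise between repeated spots (0.49 times that noise, the only such pair among 54) and were counted as 1 sample, which leaves 6 stretch samples. Session 1 stood apart from the rest on the leading principal component, which held 75.9% of the variance, and stretch replicate 7, the dimmest array, stood apart on the next, with 7.89%. At their 75th percentile, signals ran from 2107 to 2644 on the stretch with BIRB796 arrays, from 3181 to 4436 on the stretch arrays of session 1 and from 845.9 to 2455 on those of session 2. Heart muscle RNA was abundant in both groups: cardiac troponin T, Tnnt2, lay between 6.95 and 8.22 in the stretch samples and between 7.52 and 7.76 in the stretch with BIRB796 samples. All levels here are log2 values relative to the 75th percentile of the array, and all differences are stretch with BIRB796 minus stretch.

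Each difference is given from 2 fits by limma, a linear model with a shared estimate of the spread. The first, the array set fit, separates session 1 from sessions 2 and 3 and treats the latter as one set, so that stretch of session 2 is set directly against stretch with BIRB796 of session 3. The other, the session fit, gives each session a term of its own, which leaves the controls of sessions 1 and 3 as the only link, and the stretch samples of session 2 then add nothing to the difference. Of 23477 genes tested, the array set fit called 238 at a Benjamini-Hochberg adjusted p under 0.05, or 1.01%. In stretch with BIRB796, 129 were higher (0.549%) and 109 lower (0.464%), and 145 differed at least 2-fold. The higher genes made up 54.2% of the calls, against 66.3% with arrays scaled to their median (67 of 101 calls) and 21.2% with no array set term (28 of 132). The smallest adjusted p was 0.0196. At an unadjusted p under 0.05 it counted 5118 genes, 21.8%.

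The session fit called 0 genes (limma, smallest adjusted p = 1.00) and counted 528 at an unadjusted p under 0.05, 2.25% of those tested. The fits share samples and the 238 genes were chosen by the array set fit, so agreement of sign was favoured in advance and is no separate support. Of these 238 called genes 237 had the same sign in both fits, against 62.5% of all genes tested. The exception, the tumour suppressor gene Rassf2, is named for that reason after its values were seen: it differed by -2.20 ± 0.52 (SE) in the array set fit and by 0.15 ± 0.36 in the session fit. Differences were smaller in the session fit for most called genes, with a median ratio of 0.469 to the array set fit, while 108 kept at least 0.5 times their size and 73 had an unadjusted p under 0.05 there. Arrays of different groups also shared slides. With the slide added to the array set fit as a random block (correlation 0.56), 0 genes were called (limma, 3110 at an unadjusted p under 0.05). Every change described below therefore passed in the array set fit, in neither the session fit nor the fit with the slide block, and the session fit's value stands beside it.

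**Figure D1:**
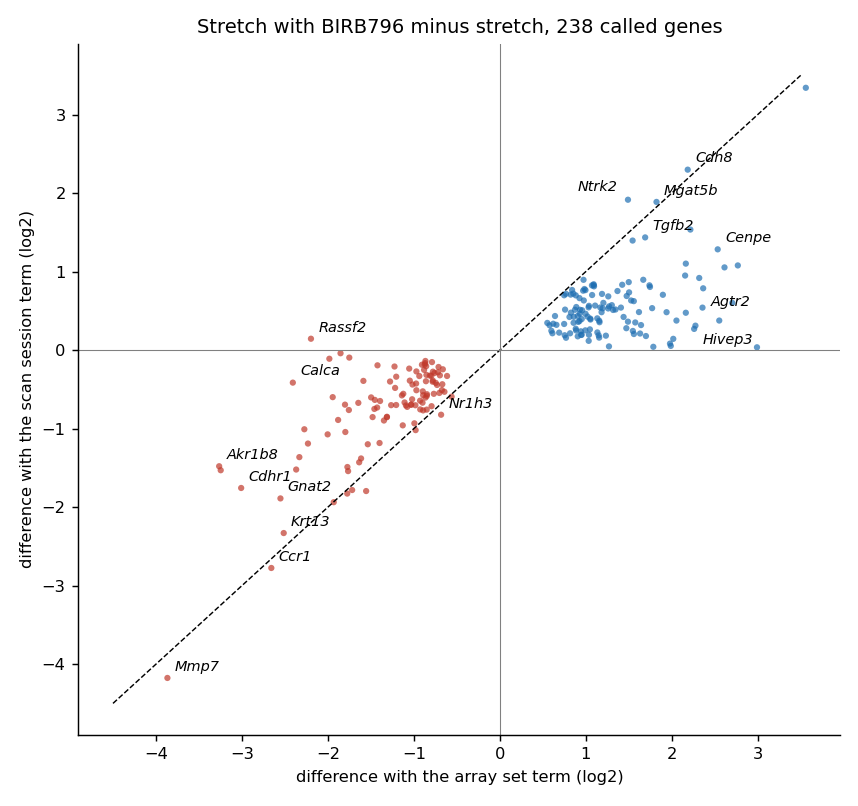
Difference between stretch with BIRB796 and stretch for the 238 called genes, in log2 units, with the array set term on the x axis and the scan session term on the y axis. Blue points are genes called higher and red points genes called lower, and on the dashed line both fits give the same value. Mmp7, Ccr1, Krt13, Cdh8 and Mgat5b lie near the line, Hivep3 and Calca lie near 0 on the y axis, and Rassf2 is the only point with opposite signs.

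The calls also rested on single samples. Leaving out stretch with BIRB796 replicate 2, 3 or 4 left 0 calls each (3810, 4183 and 3765 genes at an unadjusted p under 0.05), and leaving out replicate 1 left 16. Without stretch replicate 4 the count was 11, without replicate 6 it was 38 and without replicate 7 it was 131, whereas it was 1647 without stretch replicate 3 and 350 without replicate 2. Dropping a control sample gave between 29 calls (replicate 4) and 526 (replicate 2), and dropping a BIRB796 sample gave between 30 and 98. In all of these fits the 238 genes kept their sign. Stretch replicate 7 held the most extreme value of the compared samples in 55 of the 129 genes called higher and in 46 of the 109 called lower. That array did not read 32 of the former and 9 of the latter well above background, against 26.3% of all genes tested.

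**Figure D2:**
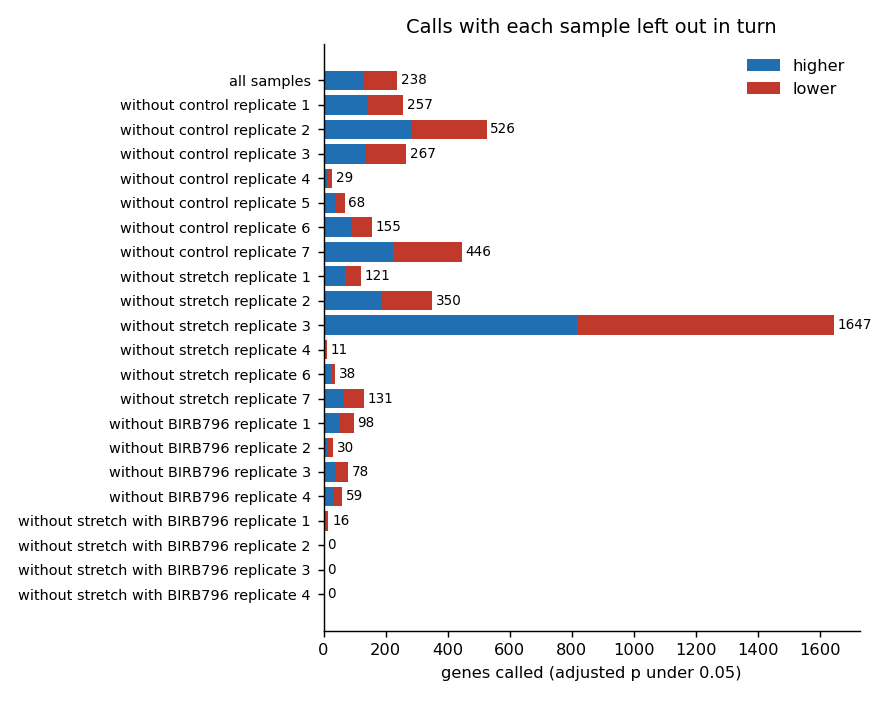
Number of genes called at an adjusted p under 0.05 with all samples and with each sample left out in turn, split into genes higher (blue) and lower (red) in stretch with BIRB796. The count runs from 0, without stretch with BIRB796 replicate 2, 3 or 4, to 1647 without stretch replicate 3.

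Among the genes that fell, the matrix metalloproteinase gene Mmp7, whose enzyme matrilysin cleaves matrix proteins and cell-surface ligands, had the largest fitted difference. In the stretch samples it lay at -3.70, -4.15 and -4.25 in session 1 and at -5.09, -6.35 and -5.99 in session 2. In the stretch with BIRB796 samples it lay at -7.80, -9.56, -10.33 and -10.57. The groups did not overlap, as in 10.1% of all genes tested, 7.97% with stretch with BIRB796 below and 2.13% with it above. Genes named for the largest differences, Mmp7 among them, had to show no overlap to be named, so its absence is no separate support. The fitted difference was -3.87 ± 0.63 (limma, adjusted p = 0.0261), and -4.18 ± 1.00 in the session fit. Only 1 of the 4 stretch with BIRB796 arrays read the probe well above background, so these values rest in part on unread signal and no fold is given. With the unread arrays set at their lowest signal above background, the group means differed by -3.23. The controls of session 3 lay between -5.57 and -7.26. The probe lies on chromosome 8, bases 4533647 to 4533706 of build rn4, plus strand.

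A pair of fallen genes was not read well above background on any stretch with BIRB796 array. The chemokine receptor gene Ccr1, which is carried mainly by leukocytes, had a stretch median of -6.81 (range -8.37 to -6.38) and stretch with BIRB796 values of -10.48, -10.60, -10.06 and -9.11. The fold is therefore a bound: it was at least 2.42-fold lower (fitted difference -2.66 ± 0.63, limma, adjusted p = 0.0484, session fit -2.77 ± 1.00). Such a bound sets the mean of the brighter group against the lowest signal still above background on each dim array, or the probe's own where that is higher. It has no term for the array set or the scan session, so it includes any shift between sessions. Krt13, a keratin of layered epithelia, had a stretch median of -6.13 (-8.15 to -5.69) and values of -9.55, -8.98, -10.33 and -9.76, all not well above background. By the same bound it was at least 3.36-fold lower (fitted difference -2.51 ± 0.58, adjusted p = 0.0462 by limma, session fit -2.33 ± 0.91). Krt13 was read above background on 5 of the 7 stretch arrays, and on 2 of the 4 in session 2. With unread arrays at their lowest signal above background, the fold against session 2 stretch alone was 2.75. Its control means were -5.97 in session 1 and -7.29 in session 3. For both genes the measured values of the groups did not overlap, as the naming rule required, and no level below background has an order.

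A further set of fallen genes was higher in stretch than in control tissue and lay near the controls in stretch with BIRB796. Cdhr1, a photoreceptor cadherin, lay at 0.09, -0.50 and -1.46 in session 1 stretch and at -1.66, 0.63 and -0.85 in session 2 stretch. In stretch with BIRB796 it lay at -3.68, -4.19, -4.28 and -4.22, and in the session 3 controls between -4.89 and -4.18. It fell by 3.01 ± 0.50 (limma, adjusted p = 0.0261), and the session fit gave -1.76 ± 0.68. Gnat2, the transducin subunit of cone photoreceptors, had a stretch median of -5.22 (-6.18 to -3.20) and stretch with BIRB796 values of -7.58, -7.22, -7.08 and -8.09. It fell by 2.55 ± 0.43 (adjusted p = 0.0261 by limma), with -1.89 ± 0.65 in the session fit. Within session 1, stretch exceeded control by 2.20 for Cdhr1 and by 2.02 for Gnat2, while within session 3, stretch with BIRB796 exceeded control by 0.45 and 0.13.

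For 4 further fallen genes stretch also lay above control within session 1, by 0.79 (Kcnn4), 0.77 (Cst6), 0.83 (S100g) and 1.09 (Pinlyp). Kcnn4, a calcium-activated potassium channel, had a stretch median of -3.81 and stretch with BIRB796 values of -5.82, -6.44, -6.37 and -7.25. It fell by 2.37 ± 0.43 (limma, adjusted p = 0.0301, session fit -1.52 ± 0.63), and its other probe gave -2.19 ± 0.39. Cst6, the cystatin E/M inhibitor of cysteine proteases, fell by 2.23 ± 0.40 from a stretch median of -2.21 to between -4.99 and -4.19 (session fit -1.19 ± 0.53). S100g, the calcium buffer calbindin D9k, fell by 2.33 ± 0.54, and Pinlyp, named for a phospholipase inhibitor domain, fell by 2.27 ± 0.51, with -1.36 ± 0.79 and -1.01 ± 0.70 in the session fit. For none of the 4 did the groups overlap, which the naming rule required. Within session 3 stretch with BIRB796 minus control was -0.73, -0.42, -0.53 and 0.08.

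Akr1b8, an aldo-keto reductase that detoxifies lipid aldehydes, lay at -0.33, -1.25 and 0.60 in session 1 stretch and at 0.17, -0.34 and 2.14 in session 2 stretch. The stretch with BIRB796 samples lay at -3.54, -3.24, -2.98 and -3.28, a fall of 3.27 ± 0.66 (limma, adjusted p = 0.0348), and the session fit gave -1.48 ± 0.88. Eps8l2, an actin regulator, fell by 2.00 ± 0.34 (adjusted p = 0.0261 by limma, session fit -1.07 ± 0.44), with stretch with BIRB796 values between -7.36 and -6.64 under a stretch median of -3.63. Its control means were -3.44 in session 1 and -6.39 in session 3, and within session 3 stretch with BIRB796 minus control was -0.59. Calca, which encodes calcitonin and the peptide CGRP, was not well above background on any stretch with BIRB796 array (fitted difference -2.41 ± 0.54, adjusted p = 0.0443 by limma). Its bound of 4.31-fold lower has no term for the session and includes any shift between sessions. The control means of Calca were -7.07 in session 1 and -9.13 in session 3. The session fit moved Calca to -0.41 ± 0.59, and its other probe gave -1.07 ± 0.39 in the array set fit.

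**Figure D3:**
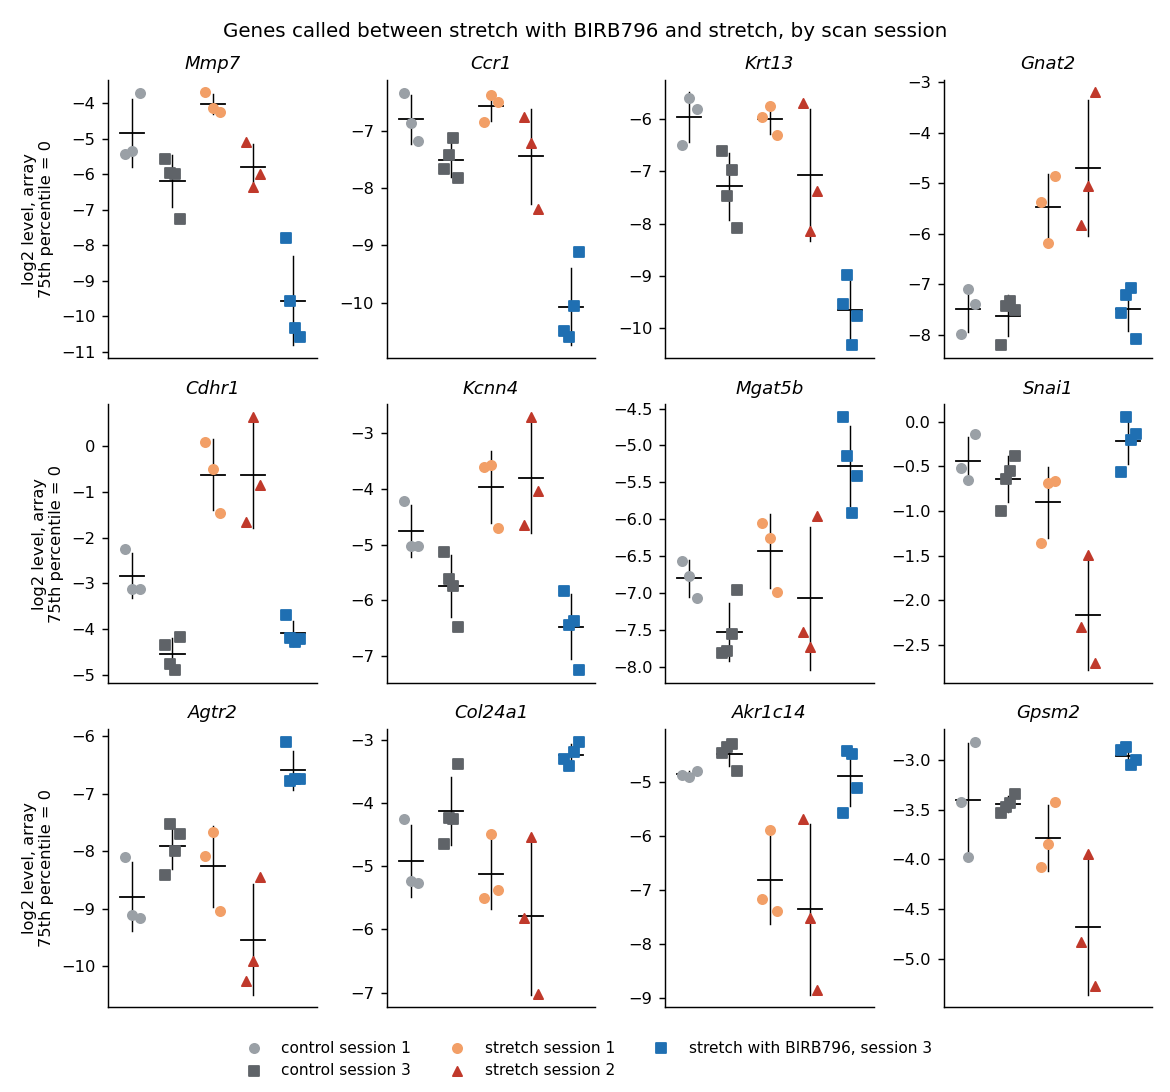
Levels of 12 called genes in each sample, in log2 units relative to the array's 75th percentile. Columns are control of session 1 and of session 3, stretch of session 1 and of session 2, and stretch with BIRB796; points are samples, horizontal lines means and vertical lines 1 SD. Mmp7, Ccr1 and Krt13 in stretch with BIRB796 lie low, where 1, 0 and 0 of the 4 arrays read them above background, Cdhr1 and Gnat2 lie near the controls, and Mgat5b and Agtr2 lie above all controls.

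Of the 12 genes named for the largest rises without overlap, Mgat5b changed least between the fits. This enzyme adds branches to sugar chains on proteins. It lay at -6.05, -6.25 and -6.99 in session 1 stretch and at -7.54, -7.73 and -5.96 in session 2 stretch, against -4.62, -5.15, -5.92 and -5.42 in stretch with BIRB796. It rose by 1.82 ± 0.34 (limma, adjusted p = 0.0322), and by 1.89 ± 0.54 in the session fit. The lowest stretch with BIRB796 value and the highest stretch value lay close together, and the gene's other probe gave 0.25 ± 0.43.

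Snai1, a zinc-finger repressor that drives the change of epithelial into mesenchymal cells, had a stretch median of -1.43 (-2.70 to -0.66) and stretch with BIRB796 values of -0.57, 0.05, -0.20 and -0.13. It rose by 1.67 ± 0.27 (limma, adjusted p = 0.0261, session fit 0.90 ± 0.36). The session 2 stretch samples were its lowest, at -2.29, -1.49 and -2.70. Gpsm2, which orients the mitotic spindle, rose by 1.5 ± 0.28 to between -3.05 and -2.87 (adjusted p = 0.0343 by limma, session fit 0.87 ± 0.40). Akr1c14, a reductase of steroid hormones, rose by 2.22 ± 0.48 (adjusted p = 0.0415 by limma) from a stretch median of -7.27 to between -5.56 and -4.41, and the session fit gave 1.54 ± 0.72. The fibrillar collagen gene Col24a1 rose by 2.16 ± 0.44 from a median of -5.44 to between -3.42 and -3.03 (session fit 1.1 ± 0.61), and its other probe gave 1.46 ± 0.41.

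Agtr2, the angiotensin receptor abundant in fetal tissue, was not well above background on any of the 7 stretch arrays and was read on all 4 stretch with BIRB796 arrays, at -6.09, -6.78, -6.75 and -6.75. By the bound, which has no session term, it was at least 1.92-fold higher (fitted difference 2.37 ± 0.52, adjusted p = 0.0441 by limma, session fit 0.79 ± 0.66). The endosomal sodium-proton exchanger gene Slc9a9 rose by 2.16 ± 0.47 from a median of -6.78 (session fit 0.95 ± 0.63). In session 1 it lay 1.58 log2 units lower in stretch than in control, and in session 3 it lay 0.63 lower in stretch with BIRB796 than in control. Regucalcin, Rgn, rose by 1.30 ± 0.28 and the TBC-domain gene Tbc1d31 by 1.2 ± 0.22, with 0.57 ± 0.38 and 0.60 ± 0.29 in the session fit. Rgn was read above background on 2 of the 7 stretch arrays and Akr1c14 on 4; with unread arrays at their lowest signal above background the group means differed by 0.71 and 1.88.

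The other 3 risen genes lost most of their difference in the session fit, as did Agtr2, Slc9a9 and Rgn above. Hivep3, a zinc-finger transcription factor, lay at 1.22, 1.24 and 2.03 in session 1 stretch, at -1.16, -0.52 and 0.10 in session 2 stretch and at 2.31 to 2.69 in stretch with BIRB796. Its difference was 2.28 ± 0.45 in the array set fit and 0.31 ± 0.36 in the session fit, and its other probe gave 0.39 ± 0.42. Ly6h, a membrane-anchored Ly6 family gene, gave 2.02 ± 0.46 and 0.14 ± 0.42, and the session 3 controls, between 0.12 and 0.42, lay above the stretch with BIRB796 samples. Chmp4bl1, a gene related to the membrane-scission protein CHMP4B, gave 2.77 ± 0.63 and 1.08 ± 0.85.

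Across the 35 gene lists used to describe pathways and cell types, 818 of 873 symbols were measured and 16 were called, 8 higher and 8 lower, or 1.96% against 1.01% of all genes tested. 20 lists held no called gene. For orientation, the median difference over all genes was -0.10 in the array set fit and -0.01 in the session fit, with 41.8% and 48.9% of genes above 0.

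In the p38 pathway itself no gene passed the test by limma, and 9 had an unadjusted p under 0.05. Of 24 measured kinases, activators and substrates, 9 differences were positive and 15 negative, with a median of -0.05 (session fit -0.02). Mapk14, the gene of p38 alpha and the inhibitor's main target, lay at 2.28 in stretch replicate 7, between 2.90 and 3.16 in the other stretch samples and at 3.25, 3.37, 3.38 and 3.40 in stretch with BIRB796. Its difference was 0.46 ± 0.16 (limma, adjusted p = 0.117), with 0.15 ± 0.22 in the session fit. Mapkapk2, the kinase downstream of p38, differed by -0.01 ± 0.11 (adjusted p = 0.952 by limma) and by 0.10 ± 0.16. These arrays measure RNA and say nothing of kinase activity.

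The MAPK phosphatases and Sprouty proteins switch MAP kinases off, and some of them are themselves induced by the ERK branch. 1 of 17 was called, the ERK phosphatase gene Dusp6, which fell. It lay at 2.17, 1.75 and 2.55 in session 1 stretch, at 2.89, 3.1 and 3.96 in session 2 stretch and at 2.39, 2.05, 2.08 and 2.14 in stretch with BIRB796. The session 2 stretch samples and stretch replicate 3 lay above all stretch with BIRB796 samples and the other 2 did not, so the groups overlapped. The difference was -1.03 ± 0.22 (limma, adjusted p = 0.0384) and -0.70 ± 0.32 in the session fit, and stretch of session 1 alone against stretch with BIRB796 gave 0.01. The list's median was -0.47, with 13 of 17 differences negative, and -0.11 in the session fit.

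AP-1 and early growth response genes had the lowest median of the 35 lists, -0.78, with 20 of 24 differences negative; the session fit gave -0.14, with 16 of 24. The one member called was Fosl2, a Fos family protein, which fell by 0.94 ± 0.21 (limma, adjusted p = 0.0443), with no overlap between stretch values from -3.47 to -2.21 and stretch with BIRB796 values of -3.91, -3.86, -4.0 and -4.04. Its session fit value was -0.33 ± 0.27. Fosl1, a close relative, lay between -3.76 and 1.42 in the stretch samples and at -3.87, -5.20, -5.07 and -5.09 in stretch with BIRB796. The groups did not overlap, but the difference of -2.75 ± 0.77 did not pass (adjusted p = 0.0753 by limma), and the session fit gave -0.78 ± 1.05. Stretch replicate 7 was the highest sample, and without it the difference was -1.63.

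The EGF receptor ligands Areg and Ereg and the prostaglandin synthase Ptgs2 did not pass the test either. Areg, amphiregulin, lay between -2.70 and 0.90 in stretch and at -2.04, -3.91, -3.89 and -3.30 in stretch with BIRB796, a difference of -2.10 ± 0.62 (limma, adjusted p = 0.0867, session fit -0.91 ± 0.91). Ereg, epiregulin, differed by -2.20 ± 0.66 (adjusted p = 0.0882 by limma, session fit -0.59 ± 0.91) and Ptgs2 by -2.31 ± 0.66 (adjusted p = 0.0813 by limma, session fit -0.67 ± 0.92). In all 3 genes stretch with BIRB796 replicate 1 was the highest of its group and overlapped with the stretch samples. Within session 3, stretch with BIRB796 still lay above control, by 1.36 for Areg, 0.78 for Ereg and 0.40 for Ptgs2; within session 1 stretch lay above control by 2.28, 1.37 and 1.06. None of 14 EGF family and ERBB genes and none of 28 inflammatory and prostaglandin genes was called by limma (3 and 7 at an unadjusted p under 0.05), and their medians were -0.09 and -0.40 (session fit -0.08 and -0.28). The cytokine Il6 was above background on at most 2 of the 22 arrays and was not tested.

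**Figure D4:**
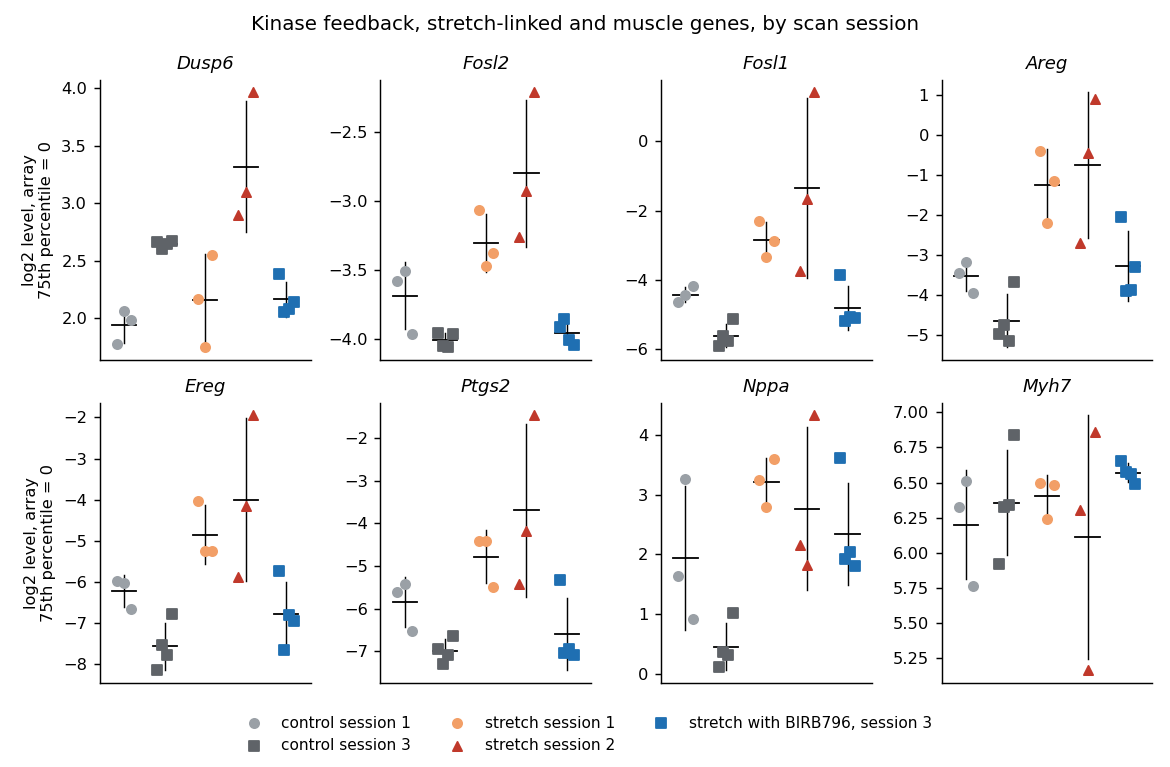
Levels of 8 signalling, stretch-linked and muscle genes in each sample, in log2 units relative to the array's 75th percentile, with columns for control, stretch and stretch with BIRB796 by scan session; horizontal lines are means and vertical lines 1 SD. Of these genes Dusp6 and Fosl2 passed the test, stretch replicate 7 is the highest stretch sample for all 8 genes, and stretch with BIRB796 replicate 1 is the highest of its group for each gene except Fosl2.

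Neither Nppa nor Nppb, the natriuretic peptide markers of cardiac load, was called between the groups. Nppa, the atrial natriuretic peptide, lay between 1.82 and 4.33 in stretch and at 3.62, 1.92, 2.03 and 1.80 in stretch with BIRB796 (difference -0.15 ± 0.58, session fit 0.61 ± 0.89), and Nppb, the B-type peptide, differed by 0.12 ± 0.61 (session fit 0.60 ± 0.95). Both adjusted p-values by limma were near 1 (0.893 and 0.915), and the standard errors leave room for a 2-fold difference either way. In the same session 3, stretch with BIRB796 lay 1.89 and 2.04 log2 units above control for the 2 peptides, and in session 1 stretch lay 1.28 and 1.44 above control. The called member of the 21 load genes was Tgfb2, treated with the matrix genes below.

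No sarcomere gene of 22 and no calcium handling or channel gene of 29 was called by limma (3 and 9 at an unadjusted p under 0.05). Their medians had opposite signs in the fits: 0.34 and 0.41 in the array set fit, -0.20 and -0.18 in the session fit. The heavy chains Myh6 and Myh7 differed by 0.53 ± 0.23 (limma, adjusted p = 0.198) and 0.34 ± 0.27 (adjusted p = 0.458 by limma), with 0.07 ± 0.34 and 0.01 ± 0.41 in the session fit. Tnnt2 differed by 0.11 ± 0.23. Among 24 cardiac transcription factors 1 rose, Gata6, a zinc-finger factor of the early heart, by 1.48 ± 0.32 (limma, adjusted p = 0.0437, session fit 0.69 ± 0.45). Its stretch with BIRB796 values of -2.42, -2.26, -2.40 and -2.54 lay above the session 2 stretch samples, at -3.60, -3.62 and -5.27, and among those of session 1, at -2.89, -2.62 and -1.95.

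Collagens and matrix glycoproteins had a median of 0.39 in the array set fit and 0.35 in the session fit. Of 37 genes 32 differences were positive in the array set fit and 28 in the session fit. In 7 of the 37 every stretch with BIRB796 sample lay above every stretch sample, against 2.13% of all genes tested. 1 was called: Ogn, osteoglycin, a small proteoglycan of the collagen matrix. It lay between 1.49 and 2.03 in stretch and at 2.42, 2.59, 2.59 and 2.59 in stretch with BIRB796, a rise of 0.82 ± 0.18 (limma, adjusted p = 0.0435), with 0.71 ± 0.28 in the session fit. The session 3 controls, between 2.43 and 2.60, lay close to the latter. Fibroblast markers, which share collagens with that list, had medians of 0.40 and 0.33 with 0 of 20 called by limma (9 at an unadjusted p under 0.05). Their part in the collagen values was not tested.

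Among 30 TGF-beta, activin and BMP genes 1 rose and 1 fell. Tgfb2, a ligand that drives matrix production, rose by 1.69 ± 0.34 (limma, adjusted p = 0.0348) and by 1.44 ± 0.53 in the session fit. Its stretch with BIRB796 values of -1.24, -2.32, -2.60 and -2.28 overlapped with the stretch samples of session 1, at -2.10, -2.52 and -2.02, and its other probe gave -0.29 ± 0.33. Fst, follistatin, which binds and blocks activins, fell by 1.65 ± 0.34 (adjusted p = 0.0375 by limma), from between 2.08 and 3.88 in stretch to 1.17, 0.84, 0.90 and 1.02, without overlap. The session fit gave -0.67 ± 0.43 for Fst. The other matrix and mechanical lists held no call by limma, with 6, 2 and 2 genes at an unadjusted p under 0.05: 26 matrix proteases and inhibitors had a median of -0.12 (session fit 0.19), 15 YAP and TAZ targets -0.24 (0.15) and 29 focal adhesion and actin genes 0.04 (0.29). Mmp7 is in none of the lists.

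Mitosis genes were the only list of the 35 with 2 genes called higher. These were 2 of 29, and all 29 differences were above 0 in the session fit, against 48.9% of all genes, with a median of 0.56; in the array set fit 22 were above 0, with a median of 0.22. Cenpe, a kinesin that moves chromosomes to the spindle equator, lay at -6.41, -5.57 and -5.51 in session 1 stretch and at -9.19, -7.64 and -8.15 in session 2 stretch. In stretch with BIRB796 it lay at -4.91, -5.40, -5.40 and -5.66, overlapping only with session 1. It rose by 2.54 ± 0.37 (limma, adjusted p = 0.0205), with 1.28 ± 0.43 in the session fit. Of the 7 stretch arrays 4 read Cenpe above background, 1 of them in session 2; with the unread arrays at their lowest signal above background the group means differed by 1.38. Top2a, the topoisomerase that untangles chromosomes, rose by 0.88 ± 0.20 (adjusted p = 0.0455 by limma, session fit 0.27 ± 0.25). Its stretch samples lay at -0.12, -0.05 and -0.78 in session 1 and at -0.95, -1.39 and -1.37 in session 2. The stretch with BIRB796 samples, between -0.18 and -0.04, overlapped with those of session 1.

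Of 33 DNA replication genes 1 was called higher, Gins3 of the helicase complex (fitted difference 1.58 ± 0.35, limma, adjusted p = 0.0441, session fit 0.35 ± 0.39). No stretch array of session 2 read it above background. With those arrays at their lowest signal above background, stretch with BIRB796 lay 0.48 above session 2 stretch. Set against all stretch samples in the same way, the group means differed by -0.77, opposite in sign to the call. Its session 1 and session 3 levels were far apart in the controls too, at -6.02 to -4.56 against -7.88 to -7.44, and stretch of session 1 alone against stretch with BIRB796 gave -2.02, and the fit with the replicate number as a block gave -0.87. Of 19 D cyclins and CDK inhibitors 1 fell, Ccnd1, the cyclin D1 that carries growth signals into the cell cycle. It lay between 0.57 and 1.15 in stretch and at -0.22, -0.17, 0.01 and -0.09 in stretch with BIRB796, without overlap, a fall of 0.91 ± 0.20 (adjusted p = 0.0443 by limma). The session 3 controls lay between -0.06 and 0.16, and the session fit gave -0.19 ± 0.23.

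Among stress and metabolism genes, 1 of 24 NRF2 antioxidant targets fell, Akr1b8, described above. The list's median was -0.49 (session fit -0.27), and 20 differences were negative. In 6 of the 24 genes every stretch with BIRB796 sample lay below every stretch sample, against 7.97% of all genes tested. No gene was called by limma among 23 heat shock, 24 endoplasmic reticulum stress, 32 glycolysis, 32 fatty acid, 36 respiratory chain and 24 interferon-stimulated genes, of which 5, 5, 6, 10, 1 and 8 had an unadjusted p under 0.05. For glycolysis and the respiratory chain the session fit gave 31 negative differences of 32 and 31 of 36, with medians of -0.27 and -0.17, whereas the array set fit gave 14 and 18 negative with medians of 0.02 and -0.01.

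Among 40 receptor tyrosine kinases outside the ERBB family 1 rose, Ntrk2, the receptor of the neurotrophin BDNF, by 1.49 ± 0.35 (limma, adjusted p = 0.0462), and the session fit gave a larger 1.92 ± 0.53. Its stretch samples lay between -4.19 and -1.76 and its stretch with BIRB796 samples at -1.60, -2.13, -2.21 and -2.51. The remaining 3 probes of the gene gave 0.52 to 1.72, all above 0. None of 25 non-receptor tyrosine kinases was called by limma (2 at an unadjusted p under 0.05), with medians of 0.10 and -0.06.

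**Figure D5:**
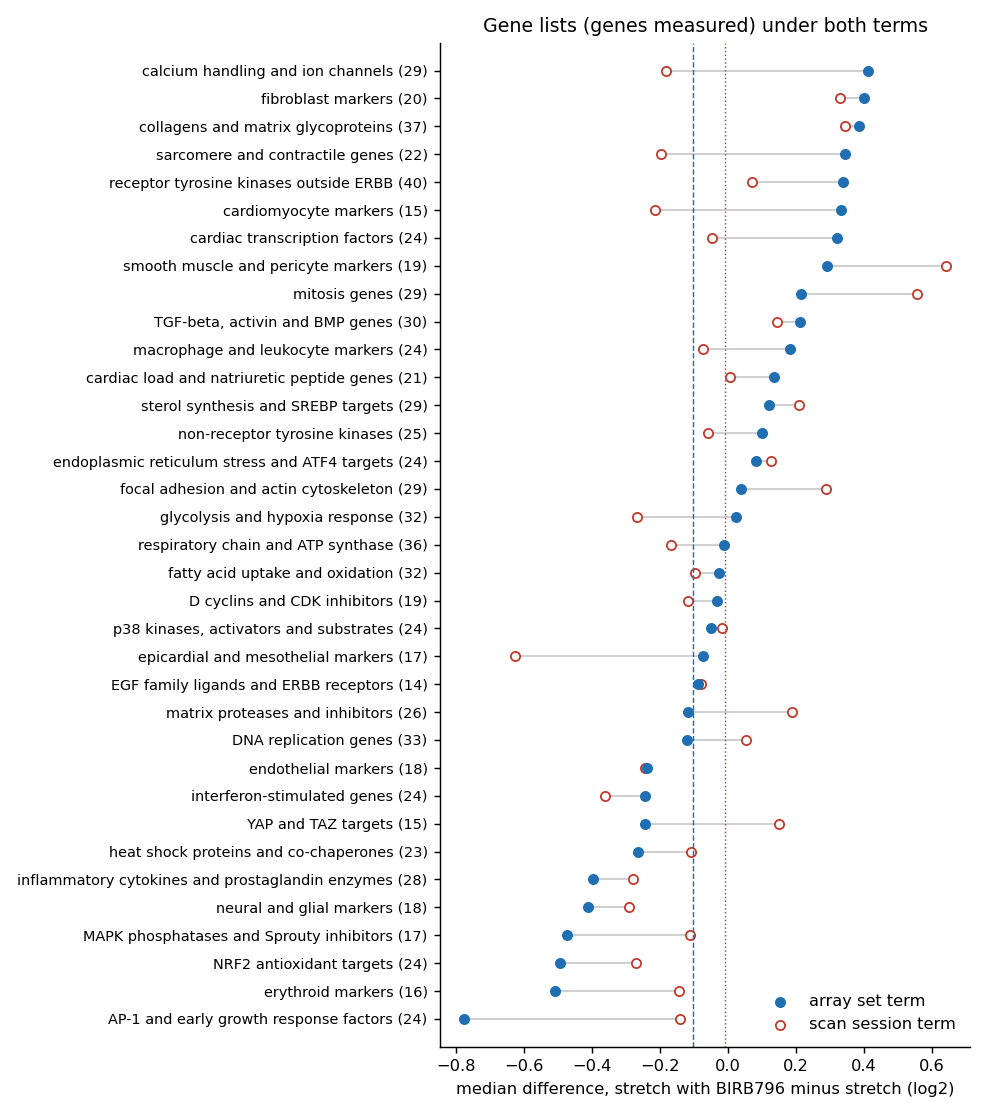
Median difference between stretch with BIRB796 and stretch over the measured genes of each list, in log2 units, with the number of genes in brackets. Filled points are the array set fit and open points the session fit; the dashed and dotted lines mark the median of all genes in each, -0.10 and -0.01. The AP-1 list is lowest in the array set fit at -0.78 and moves to -0.14, collagens stay at 0.39 and 0.35, and sarcomere and cardiomyocyte lists change sign.

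Levels of cell type markers were compared as well. The summed level of the 15 cardiomyocyte markers was 9.36 to 9.50 in stretch with BIRB796, 9.02 to 9.49 in session 1 stretch and 8.13 to 9.79 in session 2 stretch, and none of the 15 was called by limma (1 at an unadjusted p under 0.05). Of 18 endothelial markers 1 fell, the junction protein gene Esam. It lay between -3.40 and -3.12 in 5 stretch samples and at -4.12 in stretch replicate 7, against -5.09, -4.59, -4.72 and -4.67 in stretch with BIRB796, a fall of 1.13 ± 0.25 (limma, adjusted p = 0.0443, session fit -0.96 ± 0.39). In 6 of the 18 endothelial genes every stretch with BIRB796 sample lay below every stretch sample, against 7.97% of all genes tested. The summed level of the 18 was 2.26 to 2.42 against 2.61 to 3.1 in session 1 stretch and 2.21 to 2.93 in session 2 stretch. The session 3 controls had 2.58 to 2.84.

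Among 16 erythroid markers, carried by nucleated red cells of the embryo, 1 fell: Ahsp, the chaperone of alpha globin, by 0.93 ± 0.20 (limma, adjusted p = 0.0426, session fit -0.76 ± 0.31). Their summed level was -0.33 to -0.03 in stretch with BIRB796 and -0.14 to 0.14 in the session 3 controls, below the 0.64 to 1.72 of all stretch samples. Sncg, gamma-synuclein, was the 1 called of 19 smooth muscle and pericyte markers; it was not well above background on any stretch with BIRB796 array, was read on all 7 stretch arrays and was called lower (fitted difference -1.94 ± 0.40, adjusted p = 0.0384 by limma, session fit -0.60 ± 0.48). The summed level of that list was 6.38 to 7.17 against 5.81 to 7.24 over the stretch samples. None of 24 macrophage and leukocyte markers (6.83 to 7.05 against 5.45 to 6.99), 17 epicardial markers (2.05 to 2.94 against 1.30 to 4.40) or 18 neural markers (0.74 to 1.52 against 0.68 to 2.00) was called by limma, and 3, 5 and 5 had an unadjusted p under 0.05. The part of these cells in the differences of other genes was not tested.

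The promoters of called genes were searched for the DNA letters bound by factors downstream of MAP kinases, on both strands of windows from 250 bases before to 50 bases after each gene's start (RefSeq, assembly GRCr8). The letters were TGANTCA for AP-1, TGACGTCA for the cAMP response element (CRE) and TGACNNNGC for the antioxidant response element (ARE), and a site can match more than 1 of them. A gene with several windows was counted once. AP-1 letters were found in 6 of 60 genes called lower (10.0%) and in 3 of 76 called higher (3.95%), against 6.27% of 12942 genes tested and 8.04% of all 27457 genes with a window. CRE letters were found in 0 of the 60 lower and 2 of the 76 higher genes (2.63%), against 2.68% of genes tested, and ARE letters in 15.0% and 17.1%, against 14.5%. Mmp7, the gene with the largest fitted fall, holds AP-1 letters 80 bases before its start, and Procr, the endothelial protein C receptor, chosen after its values were seen, holds them 217 bases before. Ptn, which was called higher and also chosen after its values were seen, holds AP-1 letters at the same distance as Mmp7. Among the genes with CRE letters, Col24a1, which rose, holds the same site in each of 3 overlapping windows. Cenpe, which rose, and Areg, which did not pass, hold CRE letters 104 and 91 bases before their starts. A match describes the letters and no binding. The stretches around these sites read as follows, 5′ to 3′ on the gene's strand, with the matched letters in capitals.
Mmp7, chr8:13132918-13133014, plus strand: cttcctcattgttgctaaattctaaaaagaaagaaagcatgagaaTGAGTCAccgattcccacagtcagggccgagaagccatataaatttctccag
Procr, chr3:164714477-164714561, plus strand: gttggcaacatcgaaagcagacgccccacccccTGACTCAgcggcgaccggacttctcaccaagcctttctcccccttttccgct
Cenpe, chr2:226310908-226311005, plus strand: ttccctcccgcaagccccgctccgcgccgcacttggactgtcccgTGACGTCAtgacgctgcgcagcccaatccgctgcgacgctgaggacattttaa
Areg, chr14:17265680-17265777, minus strand: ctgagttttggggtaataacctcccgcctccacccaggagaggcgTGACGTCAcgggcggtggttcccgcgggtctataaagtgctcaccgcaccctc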

How the data were processed

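Cy3-labelled total RNA was read on 1-colour Agilent rat arrays, as the labels' protocols say. The intensity values that the authors deposited are linear, were corrected for background by Feature Extraction within each array, and carry no scaling across arrays, per the file headers. Control spots and outlier-flagged spots were left out (293 probe values), saturated spots were kept, spots of a probe were averaged on the log2 scale, and the 75th percentile of each array was set to 0. A probe had to exceed background on 4 or more arrays (26881 did), with the brightest probe per gene. Weak probes vary more, and the number of arrays limits the precision. Gene names came from RefSeq (GRCr8; 20972 of 30367 probes matched). Probe coordinates are those of build rn4 in the file headers.

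Differences came from limma 3.58.1 in R 4.3.3 (two-sided, Benjamini-Hochberg over 23477 genes) on 21 samples of all 4 groups, which share an estimate of the spread. The term for the array set was kept from earlier work, and the session fit is given beside it. On simulated data for this comparison (23256 genes), the array set fit recovered 40.0%, 85.5% and 96.0% of changes of 1, 2 and 3 log2 units. The session fit recovered 4.5%, 59.5% and 84.0%. The simulation had no shift between sessions 2 and 3, which is what the array set fit assumes, and independent noise without a slide effect. It therefore cannot tell which fit serves the real arrays better.

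Named genes are the 12 called genes with the largest difference each way among those with a RefSeq symbol, no overlap of the groups and the same sign in both fits (97 were eligible), up to 2 called members each way per list, 12 genes taken whatever their values, and genes said to be chosen after their values were seen; 1 called list member is not reported here. The members and lists were chosen with earlier results of these data known. Alternatives changed the term, samples, background correction, scaling, filter and probe rule. The authors' deposited log2 table, whose baseline is not stated in the sources used here (column medians -0.11 to 0.40), served as one of them: each column correlated best with its own array.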

Additional observations from a re-analysis of the deposited data

Results flagged for a closer look

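In 12 of 120 checks a sample stood apart from the rest of its group by Dixon's criterion; chance gives about 1 in 20. Stretch with BIRB796 replicate 1 accounts for 8 of them. It was the highest of its group for Cdhr1 at -3.68, Agtr2 at -6.09, Fosl1 at -3.87, Ptgs2 at -5.33 and Nppa at 3.62, and the lowest for Ly6h at -1.23, Ogn at 2.42 and Ahsp at -3.01. That sample shared its slide with 1 control and 1 BIRB796 array, while the other 3 lay on 2 other slides.

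Stretch replicate 7, the array with the lowest signal, was the lowest stretch sample for Esam at -4.12 and Mapk14 at 2.28 and the highest for Ptgs2 at -1.47. Stretch replicate 6 was the lowest for Myh7 at 5.16; without it the Myh7 difference was -0.01. The cause of these departures was not tested.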

How the results depend on the processing

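Against 238 calls (129 higher, 109 lower, 54.2% higher), there were 0 with the scan session term, 132 (28 and 104, 21.2% higher) without the array set term, 3792 (1761 and 2031) in sessions 2 and 3 alone, 11843 (1504 and 10339) for stretch of session 1 alone, 0 with the slide as a random block (3110 at an unadjusted p under 0.05), 984 (552 and 432) with stretch replicates 4 and 5 apart, 423 (260 and 163) with normexp and quantile scaling, 101 (67 and 34, 66.3% higher) with array median scaling, 526 (262 and 264) with probes above background on all arrays, and 100 (52 and 48) with no filter. The authors' table gave 292, another percentile 268, the compared groups alone 252 and the mean over probes 207. Leaving out each sample gave 0 to 1647 calls (0 to 818 higher, 0 to 829 lower). Of the 49 called genes named, 0 kept the call with the session term or the slide block, 37 with normexp, 49 with the authors' table and 24 without stretch replicate 7. The cause was not tested.

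With the replicate number as a block (replicates 1 to 4, compared groups alone) 0 genes were called, with 9013 at an unadjusted p under 0.05. Samples of the same number correlated by 0.42, -0.32, 0.01 and 0.19 in their deviations, so the numbers were not taken as pairs.

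Reversed values are as follows. With the session term: Mapkapk2 0.10, Nppa 0.61, Tnnt2 -0.16, Rassf2 0.15. Without the array set term: Mapkapk2 0.16, Nppb -0.73. Sessions 2 and 3 alone, and the compared groups alone: Nppb -0.052. Stretch of session 1 alone: Dusp6 0.0093, Gins3 -2.02, Mapkapk2 0.38, Nppb -1.40, Ctf2 -2.04. Replicate block: Gins3 -0.87, Mapkapk2 0.27, Nppb -1.04, Ctf2 -1.12. Slide block: Mapkapk2 0.036, Nppa 0.12, Tnnt2 -0.16. Normexp: Mapkapk2 0.10, Nppa 0.031. Median and other percentile: Mapkapk2 0.017 and 0.016. Leaving out each sample gave -0.038 to 0.043 for Mapkapk2, -0.57 to 0.45 for Nppa, -0.42 to 0.46 for Nppb, -0.0069 to 0.54 for Myh7 and -0.085 to 0.32 for Tnnt2. Genes near background, such as Mmp7, Ccr1, Krt13, Calca, Sncg, Agtr2, Rgn, Akr1c14, Cenpe, Gins3, Ctf2 and Cdh8, are limited by array signal.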

Other observations

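Several called genes outside the naming rule are given here, chosen after their values were seen. Called higher in the array set fit were the cardiotrophin genes Ctf1 (0.95 ± 0.19, limma, adjusted p = 0.0348) and Ctf2 (1.63 ± 0.35, adjusted p = 0.0415 by limma), the transcription factor gene Stat3, which acts downstream of their receptor (1.06 ± 0.21, adjusted p = 0.0348 by limma), and Ptn, the heparin-binding growth factor pleiotrophin (1.75 ± 0.32, adjusted p = 0.0301 by limma). The session fit gave 0.40 ± 0.24, 0.21 ± 0.32, 0.39 ± 0.26 and 0.80 ± 0.40. For Ctf1 the session 1 stretch samples, at -2.42, -2.55 and -2.43, lay among the stretch with BIRB796 samples. Its session 2 stretch samples lay below them, at -3.43, -3.24 and -4.10. The groups overlapped for Ptn too. The direction of Ctf2 turned with stretch of session 1 alone (-2.04) and with the replicate number as a block (-1.12). Of the 7 stretch arrays 5 read Ctf2 above background, and of the 4 in session 2 only 2 did. With the unread arrays at their lowest signal above background the group means differed by -0.28, opposite in sign to the call. For Stat3 the session 2 stretch samples, at -0.94, -0.68 and -1.38, lay below those of session 1, at 0.16, -0.10 and 0.63, and the stretch with BIRB796 samples, at 0.42, 0.44, 0.29 and 0.04, overlapped with the latter. Omd, osteomodulin, a small proteoglycan like Ogn, rose by 0.98 ± 0.18 (session fit 0.78 ± 0.27), and the cadherin gene Cdh8 by 2.19 ± 0.50 (session fit 2.3 ± 0.79). Of the 7 stretch arrays 2 read Cdh8 above background; with the others at their lowest signal above background the group means differed by 1.08.

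Among genes called lower, the liver X receptor gene Nr1h3 (-0.68 ± 0.15, session fit -0.82 ± 0.22) and the retinoic acid carrier Crabp2 (-0.98 ± 0.23, session fit -1.02 ± 0.35) had session fit values no smaller than those of the array set fit. Nr1h3 lay between -2.29 and -1.70 in stretch and at -2.66, -2.71, -2.53 and -2.69 in stretch with BIRB796, and between -2.28 and -1.80 in the session 3 controls. Procr fell by 1.88 ± 0.38 and Ramp3, a subunit of adrenomedullin and calcitonin-type receptors, fell by 1.43 ± 0.32, with -0.89 ± 0.51 and -0.73 ± 0.46 in the session fit. For these 4 fallen genes the groups did not overlap.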
